A study of Mus musculus with 4 samples.

Results

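Imprinted genes are expressed mainly or only from the allele inherited from one parent, and 31 known imprinted mouse genes were followed here in cells of the Tbx1Cre lineage from the pharyngeal region and heart of mouse embryos at E9.5. The genes were taken by symbol from a fixed list, with no threshold on their values, and all 31 were found among the 32285 genes of the deposited count tables. This list, and the gene lists set beside it, were chosen with earlier results of these data known. Embryos carried Tbx1Cre/+ and GFP F/+ in both groups, with Kmt2d F/+ in the conditional heterozygotes (cHet, the controls) and Kmt2d F/F in the conditional knockouts (cKO). Each genotype had 2 libraries of EGFP+ DAPI- sorted cells. The Rep1 libraries came from 4 pooled embryos each and the Next GEM kit, and the Rep2 libraries from 3 pooled embryos each and the GEM-X kit. Cre was knocked into Tbx1, so all embryos also lacked 1 functional copy of Tbx1, and embryos of a pool could not be told apart. The library was the replicate, with n = 2 per genotype. The p-values rest on a spread between these 4 pools that is estimated largely across genes. They therefore say little of how a single gene varies between pools.

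Genomic imprinting is set by DNA methylation placed on control regions in the egg or sperm and kept through the epigenetic resetting of the early embryo, where the zinc finger proteins ZFP57 and ZFP445 with TRIM28 hold it in place. Most imprinted genes lie in clusters in which a shared control region silences some genes on the maternal and others on the paternal chromosome, often beside a long non-coding RNA. As a family they are best known for fetal and placental growth: Igf2 is a growth factor, Igf2r removes it from the cell surface, and Grb10, Cdkn1c and H19 restrain growth. Several also act in muscle, fat and neuroendocrine cells, among them Dlk1, Ndn and Nnat. Kmt2d encodes a histone methyltransferase of active enhancers and promoters.

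By published knowledge of the mouse, 19 of the 31 are expressed from the paternal allele, 10 from the maternal allele, and 2 (Gnas and Ube3a) depend on the tissue. The files hold total UMIs (unique molecular identifiers, each counting 1 captured RNA molecule), which do not show the parental allele, so imprinting itself was not measured. The 31 lay on 9 chromosomes of GRCm38, with 14 on chromosome 7, 5 on chromosome 12, 3 on chromosome 6 and 2 on chromosome 2. The Igf2 and H19 domain was represented by Igf2 (chr7:142650766-142666816, minus strand) and the RNA gene H19 (chr7:142575529-142578143, minus strand). Dlk1 (chr12:109452823-109463336, plus strand) stood for the Dlk1 domain with Meg3, Rian, Mirg and Rtl1. Peg10 (chr6:4747306-4760517, plus strand) and Sgce (chr6:4674350-4747207, minus strand) start next to each other on opposite strands. A counted gene overlapped 13 of the 31 on the opposite strand, such as Airn across Igf2r, and 2 on the same strand (Snrpn and Peg13). Whether counting used strand and introns was not given in the sources used here, so reads of overlapping genes may not be fully separable.

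Promoter windows are shown for 4 of the 5 genes called in the genotype comparison below, and for Peg3, the neighbour of Zim1. RefSeq (GRCm38.p6) windows of 300 bases, from 250 before to 50 after a transcript's start, were matched for 24 of the 31 genes, in 37 windows. The sequences are given 5′ to 3′ on the gene's strand in lower case, and capitals mark the hexamer TGCCGC, the ZFP57 motif, read on either strand (GCGGCA on the other).
Nnat (chr2:157559828-157560127, plus strand): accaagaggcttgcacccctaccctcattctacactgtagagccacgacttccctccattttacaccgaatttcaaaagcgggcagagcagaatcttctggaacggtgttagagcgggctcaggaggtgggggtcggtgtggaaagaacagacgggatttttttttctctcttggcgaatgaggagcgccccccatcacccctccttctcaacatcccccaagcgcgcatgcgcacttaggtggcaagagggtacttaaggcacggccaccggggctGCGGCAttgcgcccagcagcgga
Zim1 (chr7:6696383-6696682, minus strand): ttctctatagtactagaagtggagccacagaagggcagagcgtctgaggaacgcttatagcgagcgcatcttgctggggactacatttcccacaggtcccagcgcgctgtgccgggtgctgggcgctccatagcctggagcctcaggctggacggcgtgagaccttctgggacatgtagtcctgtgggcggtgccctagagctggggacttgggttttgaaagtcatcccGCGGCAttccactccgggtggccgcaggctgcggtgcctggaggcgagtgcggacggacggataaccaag
Igf2 (chr7:142661222-142661521, minus strand): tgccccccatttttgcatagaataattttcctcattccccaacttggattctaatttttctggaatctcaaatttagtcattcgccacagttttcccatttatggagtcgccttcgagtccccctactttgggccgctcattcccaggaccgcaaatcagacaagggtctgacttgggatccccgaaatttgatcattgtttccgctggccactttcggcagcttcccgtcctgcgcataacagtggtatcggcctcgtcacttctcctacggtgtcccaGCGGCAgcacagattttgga
Dlk1 (chr12:109452573-109452872, plus strand): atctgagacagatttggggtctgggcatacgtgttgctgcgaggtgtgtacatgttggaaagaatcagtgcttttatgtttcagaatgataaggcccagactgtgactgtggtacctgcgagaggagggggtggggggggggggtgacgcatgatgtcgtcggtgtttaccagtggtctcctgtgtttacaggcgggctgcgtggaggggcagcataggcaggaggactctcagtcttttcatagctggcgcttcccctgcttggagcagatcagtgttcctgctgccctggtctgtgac
Peg3 (chr7:6730370-6730669, minus strand): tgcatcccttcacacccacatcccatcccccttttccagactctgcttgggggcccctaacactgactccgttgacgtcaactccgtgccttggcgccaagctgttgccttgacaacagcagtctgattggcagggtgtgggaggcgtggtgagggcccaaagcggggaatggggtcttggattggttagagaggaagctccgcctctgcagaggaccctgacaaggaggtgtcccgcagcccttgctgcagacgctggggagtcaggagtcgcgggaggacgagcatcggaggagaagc
The hexamer occurred in 9 of the 37 windows (24.3%), against 11.6% of 32851 RefSeq mouse windows of this length, and in 8 of the 24 genes (33.3%) against 13.1% of 27025. The 8 genes were Nnat, Mest, Zim1, Snrpn, Igf2, Plagl1, Grb10 and Meg3. The median number of CpG dinucleotides was 12 in the windows of imprinted genes and 7 over all windows; those printed held 17 (Nnat), 20 (Zim1), 14 (Igf2), 9 (Dlk1) and 13 (Peg3). The Igf2 window is 1 of 4 for this gene, and the other 3 did not hold the hexamer. The windows of Peg3 and Usp29 overlapped by 263 bases on opposite strands, so these 2 genes share a promoter region. A hexamer in a window is a description of its letters, and no match says only that these letters are not in this window. Peg10, Sgce and H19 are named without a window.

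The libraries held 9307 to 37093 barcodes, of which 5869 cHet and 6291 cKO barcodes of Rep1 and 9350 cHet and 11938 cKO barcodes of Rep2 passed as cells, with 124259137 to 210797838 UMIs and a median of 17240.5 to 22972 UMIs per cell. The cHet Rep1 library stood apart, since cells kept held 60.04% of its UMIs against 86.1% to 91.6% in the others. Libraries of the same kit shared 12 (Rep1) and 41 (Rep2) barcodes. The cells formed 23 clusters, of which 18 were named from marker genes as 11 cell classes: ectoderm, endoderm, otic vesicle, endothelium, cardiac muscle, aSHF and pSHF (anterior and posterior second heart field), MLPs (multilineage primed progenitors), BrM (branchiomeric muscle), neuronal cells and mesenchyme. Each name stands for likeness to marker genes in rebuilt clusters (aSHF-like and so on), and the classes may differ from those of the study. The 7954 cells of 5 unnamed clusters entered only the values for all cells.

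The imprinted genes took a small and uneven share of the RNA. In all cells kept they made up 0.635% and 0.633% of UMIs in the cHet and cKO Rep1 libraries, and 0.954% and 0.946% in the Rep2 libraries. By cell class, the mean share over the 4 libraries ran from 0.445% in the otic vesicle to 1.06% in aSHF and 1.08% in cardiac muscle. The otic vesicle had the lowest mean level for 12 of the 31 genes. The highest mean level was in aSHF for 9 genes, in cardiac muscle for 7 and in endothelium for 6, and 13 of the 31 had their highest class in common over all 4 libraries. Levels are given as CPM, the UMIs of a gene scaled to a common total of UMIs for each class and library, and 4 values in a row are always those of the Rep1 libraries, cHet before cKO, and then of the Rep2 libraries, cHet before cKO.

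**Figure D1:**
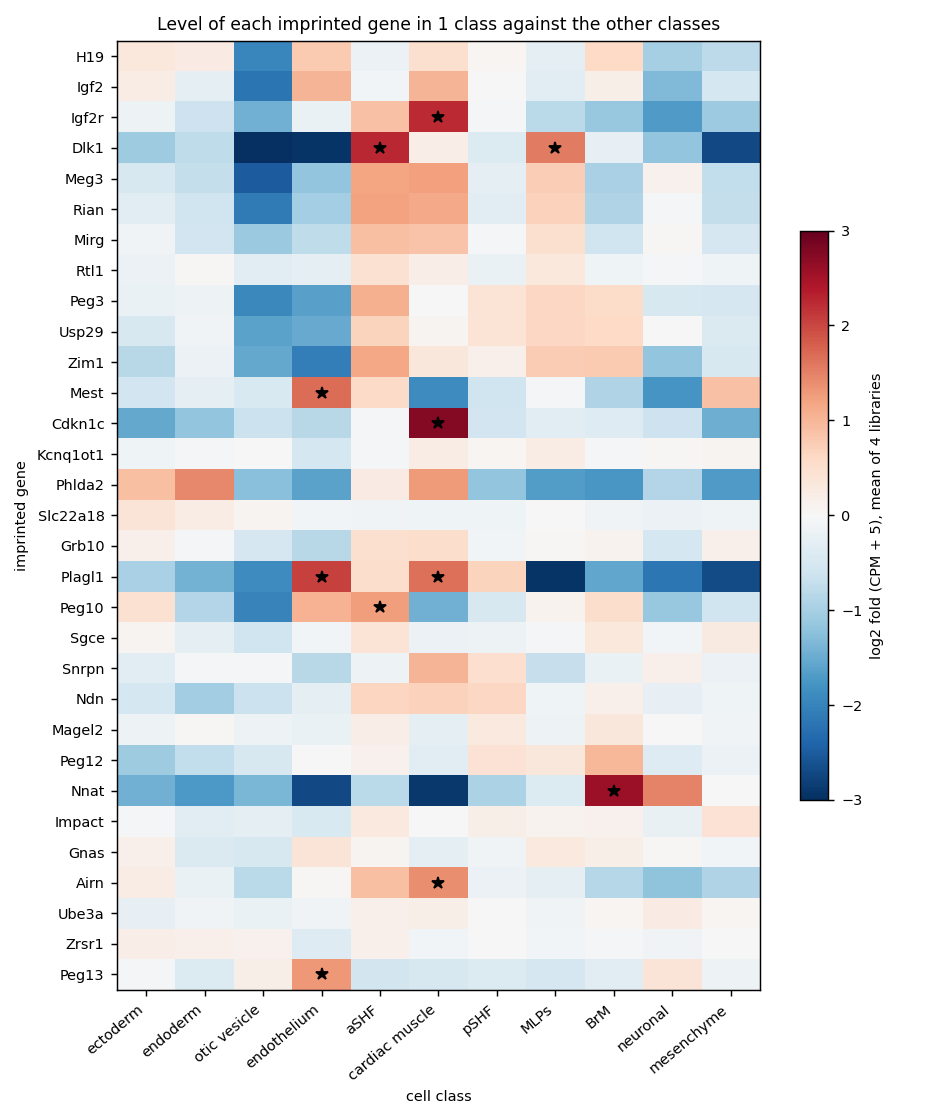
Heat map of the level of the 31 imprinted genes (rows) in 11 cell classes (columns), as the log2 fold of a class over the mean of the other classes, with 5 CPM added to both, averaged over the 4 libraries; stars mark genes at least 2-fold higher in that class in every library. Cardiac muscle holds 4 starred genes, endothelium 3, aSHF 2, and MLPs and BrM 1 each.

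Cell-class differences were strong for a minority of the genes. Of the 31, 9 (29%) were at least 2-fold higher in 1 class than in the mean of the others in each of the 4 libraries, after 5 CPM were added, against 11.5% of 20126 genes. Among genes with a mean of at least 5 CPM, it was 8 of 26 (30.8%) against 14.9%. The 9 were Cdkn1c, Igf2r, Airn and Plagl1 in cardiac muscle (2.84% of all genes), Plagl1, Mest and Peg13 in endothelium (3.14%), Dlk1 and Peg10 in aSHF (0.542%), Dlk1 in MLPs (0.482%) and Nnat in BrM (0.497%). Clusters were formed without the imprinted genes, so their own levels did not shape the classes. The list depends on how the classes are drawn. Peg10 and Airn did not meet the 2-fold rule with at least 1000 genes per barcode, and Peg10 did not with the imprinted genes allowed in the clustering, where a cluster of 982 cells led by Rgs5 and Hand2 was counted as cardiac muscle. With doublets kept no cluster was named aSHF, so Peg10 in aSHF was not tested there. No test was made between classes, which come from the same libraries.

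Cardiac muscle was the class with the most of these genes. Cdkn1c, a cyclin-dependent kinase inhibitor that takes cells out of the cycle, stood at 1826, 1191, 2674 and 2781 CPM in cardiac muscle, 3.95-fold to 9.37-fold over the other classes across the 4 libraries. Igf2r, the receptor that clears IGF2, stood at 441, 447, 738 and 756 CPM there (4.54-fold to 4.95-fold), and Airn, the long RNA that overlaps it and silences it on the paternal chromosome, at 1004, 867, 1361 and 1389.6 CPM (2.54-fold to 2.85-fold). Igf2r and Airn were thus high in the same class, and over the 11 class means their levels (log2 after adding 5 CPM) had a Pearson r of 0.97; these points share libraries and depth. The maternally expressed receptor and its paternally expressed silencer also kept a ratio of Igf2r to Airn UMIs that was highest in cardiac muscle in every library, at 0.439, 0.516, 0.542 and 0.544. The lowest class means of both were in neuronal cells. Cardiac muscle was small, with 79, 29, 128 and 147 cells, and the cKO Rep1 value of some genes stood apart there, as given below.

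Endothelium carried high Mest and Plagl1. Mest, which encodes a hydrolase-like membrane protein, stood at 1263, 1373, 4179.9 and 4047 CPM in endothelium (2.84-fold to 3.57-fold), and by class mean was lowest in cardiac muscle, at 183, 252, 261 and 310.1 CPM. Neuronal cells were below cardiac muscle in both cKO libraries, with 236 and 259 CPM. Plagl1, a zinc finger transcription factor placed upstream of other imprinted genes, stood at 205, 208, 318 and 326 CPM in endothelium (4.04-fold to 4.26-fold) and at 185, 181, 236 and 247 CPM in cardiac muscle (2.87-fold to 3.52-fold). In MLPs Plagl1 was at 5.89, 4.86, 8.39 and 7.15 CPM, its lowest class. Peg13, a non-coding RNA inside Trappc9, was low everywhere but reached 12.1, 13.9, 15.0 and 13.8 CPM in endothelium (2.39-fold to 2.61-fold).

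The progenitor classes and branchiomeric muscle were marked by other members. Dlk1, a transmembrane protein related to Notch ligands that is known from immature cells, stood at 354, 399, 522 and 545 CPM in aSHF (4.27-fold to 5.03-fold) and at 268, 292, 358 and 352 CPM in MLPs (2.72-fold to 3.17-fold). Otic vesicle cells held 17.6, 5.88, 1.57 and 2.72 CPM of Dlk1. MLPs were not uniform, since the mean over libraries was 720.5 CPM of Dlk1 in 1 of their clusters (18) and 222 CPM in the other (3). Peg10, a domesticated retrotransposon gene needed in placenta, stood at 125, 124, 306 and 326 CPM in aSHF (2.28-fold to 2.50-fold), and its endothelial level missed the 2-fold rule narrowly, at 1.99-fold to 2.21-fold. Nnat, a small endoplasmic reticulum protein, stood at 2275, 3087, 2805 and 3203 CPM in BrM (4.48-fold to 8.10-fold) and at 1000.3, 1027, 2808 and 2514 CPM in neuronal cells. Markers of the neuronal class also differed between replicates, as given below. Just outside the rule were also Meg3 (1.99-fold to 2.78-fold), Rian (1.94-fold to 2.63-fold), Peg3 (1.93-fold to 2.34-fold) and Zim1 (1.81-fold to 2.48-fold) in aSHF, and Snrpn in cardiac muscle (1.84-fold to 2.26-fold).

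**Figure D2:**
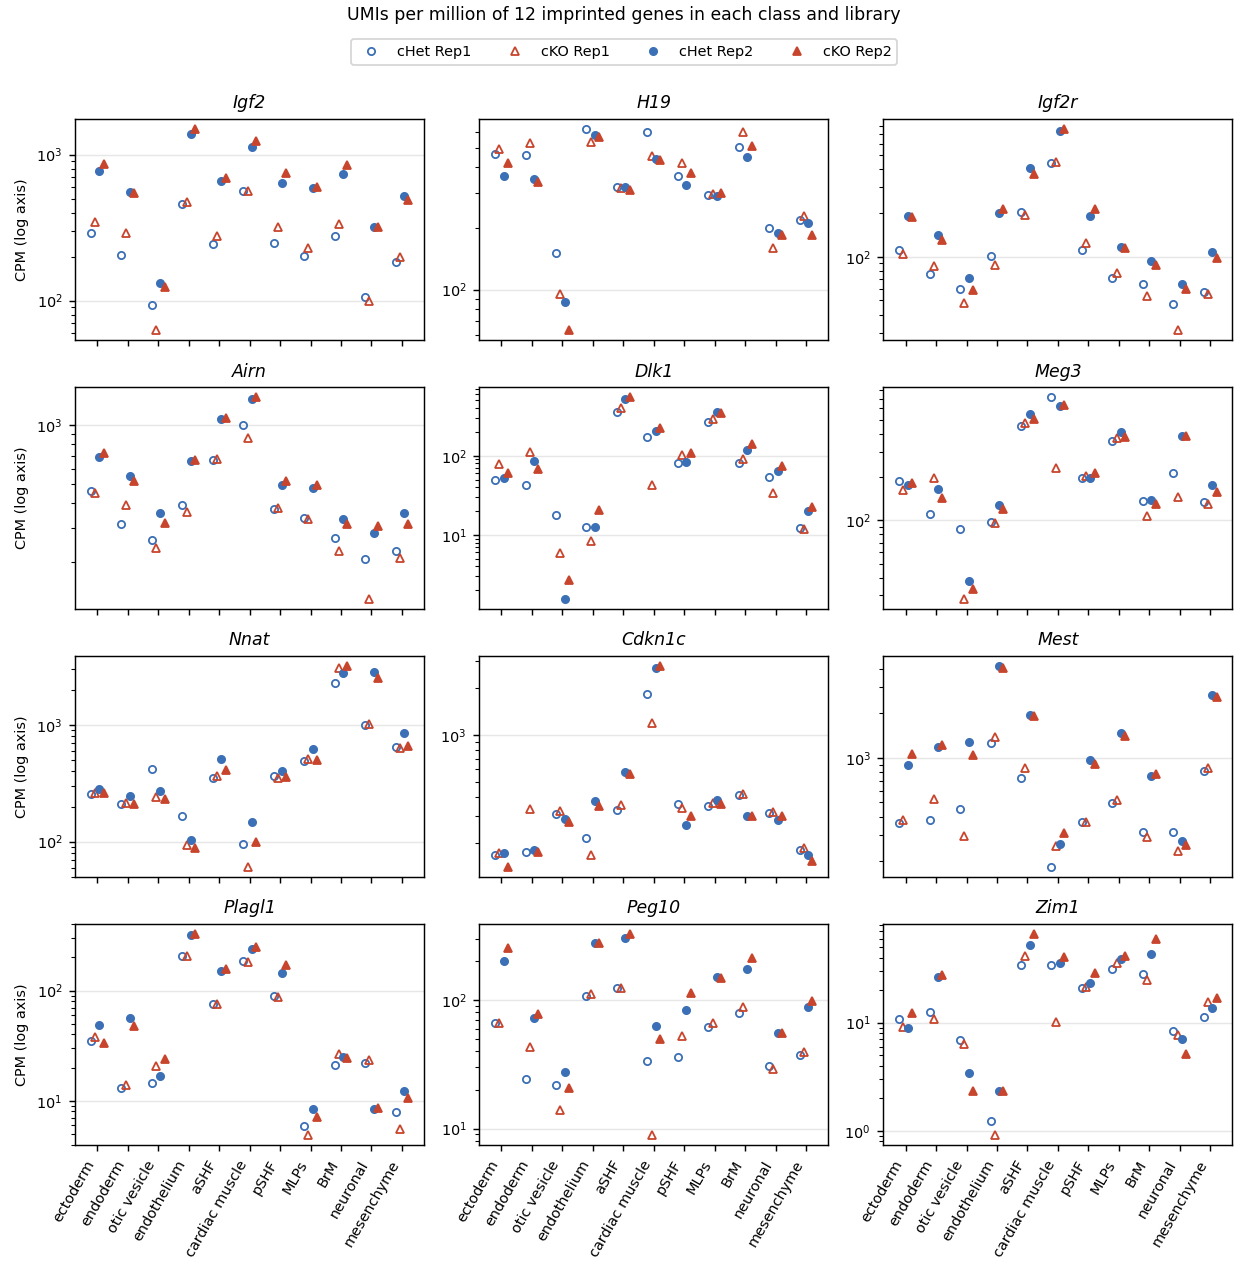
Level in CPM (log axis) of 12 imprinted genes in each of the 11 cell classes, with 1 point per library; circles are cHet, triangles are cKO, open symbols Rep1 and filled symbols Rep2. Cdkn1c, Igf2r and Airn peak in cardiac muscle, Mest in endothelium, Dlk1 in aSHF and Nnat in BrM by class mean; in cHet Rep2 Nnat was at 2808 CPM in neuronal cells and 2805 CPM in BrM.

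Some genes of a shared locus had like patterns over the classes, whichever parental allele they are expressed from. Over the 11 class means, as log2 after adding 5 CPM, r was 0.95 for Igf2 with H19, 0.85 for Dlk1 with Meg3, 1.00 for Meg3 with Rian, 0.97 for Peg3 with Usp29 and 0.93 for Peg3 with Zim1. It was lower for Peg10 with Sgce (0.75), Ndn with Peg12 (0.59), Snrpn with Ndn (0.47), Cdkn1c with Kcnq1ot1 (0.43) and Cdkn1c with Phlda2 (0.30). These correlations are descriptions over classes that share their libraries. Over the 44 class and library values, centred within each library, the gene most like Igf2 in pattern among the 31 was H19 (r = 0.94), the gene most like Igf2r was Airn (0.97), the gene most like Meg3 was Rian (0.99), and the gene most like Dlk1 was Peg3 (0.91), which lies on another chromosome.

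Igf2 and H19, growth promoter and growth restrainer of one locus, were both low in otic vesicle and high in endothelium. Igf2 stood at 459, 475, 1392 and 1495 CPM in endothelium, 560.4, 568, 1134 and 1240.4 CPM in cardiac muscle and 93.1, 62.5, 132 and 125 CPM in otic vesicle. Endothelium and cardiac muscle were not ordered for Igf2, each being highest in 2 of the 4 libraries. H19 stood at 617, 536, 577 and 567 CPM in endothelium, its highest class in 3 of 4 libraries, and at 151, 95.3, 86.5 and 63.0 CPM in otic vesicle. Otic vesicle was the lowest class for both genes in all 4 libraries.

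The balance of the 2 genes differed more between replicates than between genotypes. The number of Igf2 UMIs per H19 UMI in all cells was 0.707 and 0.763 in the Rep1 libraries and 2.09 and 2.17 in the Rep2 libraries. By class and library it ran from 0.448 to 1.24 in Rep1 and from 1.52 to 2.85 in Rep2, with no overlap. The ratio was also higher in cKO than in cHet within both replicates, in all cells and in 8 of the 11 classes, which was not tested. In CPM of all cells, with 5 CPM added, Igf2 was 1.46 log2 higher in Rep2 than in Rep1 and H19 differed by -0.06. Kit, pool and Cell Ranger version in the file headers (7.0.1 for Rep1, 8.0.1 for Rep2) all changed together between replicates and cannot be told apart. On the log2 scale of the fit, after TMM scaling, where Igf2 had 1.17 and H19 -0.37, Mest (1.21) and Peg10 (1.00) also stood at higher levels in Rep2, while Rtl1 (-1.22), Gnas (-0.68) and Ndn (-0.61) stood lower. In all, 4 of 31 imprinted genes (12.9%) differed by more than 1 log2 between replicates on that scale, against 15.5% of all genes. The directions differed: 3 of the 31 were higher in Rep2 and 1 lower, against 445 higher and 2668 lower of 20126 genes. Mest, Igf2 and Peg10 lay above 98.9%, 98.8% and 97.8% of all genes in this difference. Genotypes were therefore tested within replicates, and whether libraries overlap across replicates is given as a description.

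**Figure D3:**
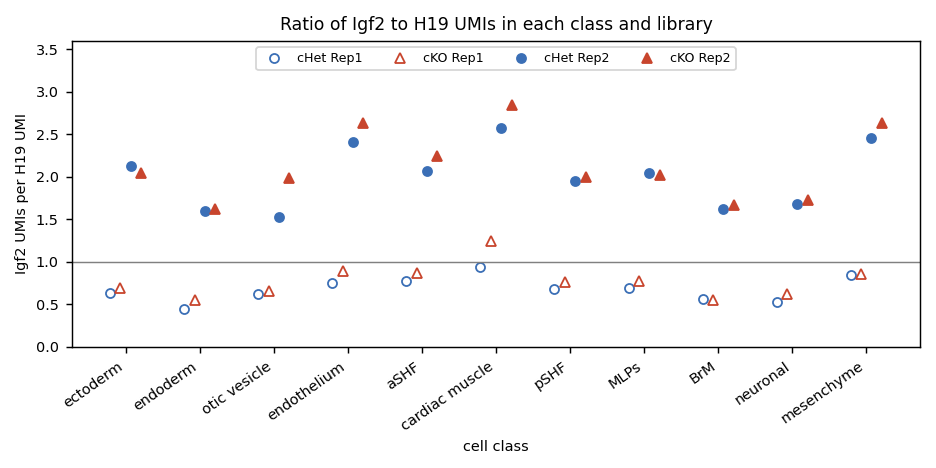
Igf2 UMIs per H19 UMI in each cell class, with 1 point per library (circles cHet, triangles cKO, open Rep1, filled Rep2); the line marks equal numbers. All Rep1 values lie at or under 1.24 and all Rep2 values at or over 1.52, in both genotypes.

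In the Dlk1 domain, the ratio of 2 maternally expressed RNAs varied less between classes than their ratio to the paternally expressed Dlk1. Meg3 and Rian, long RNAs of one maternal transcription unit, held 2.51, 2.62, 2.28 and 2.21 Meg3 UMIs per Rian UMI in all cells, and from 1.79 to 2.89 by class and library. Dlk1 UMIs per Meg3 UMI were 0.787, 0.842, 0.948 and 1.07 in aSHF and only 0.0904, 0.0922, 0.114 and 0.141 in mesenchyme. Meg3 was highest in cardiac muscle by its mean, but the 29 cardiac cells of cKO Rep1 stood apart with 229 CPM against 715, 621 and 637 CPM in the other libraries. In the same cells Dlk1 was at 43.1 CPM against 175, 204 and 222 CPM.

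Several of the remaining members varied little between classes or were near the limit of detection. Ube3a, a ubiquitin ligase, differed by 0.44 log2 between its highest and lowest class mean, Zrsr1, a splicing factor gene, by 0.52, Kcnq1ot1, the silencing RNA of the Kcnq1 domain, by 0.69, Impact, a regulator of translation, by 0.80, Gnas, a G protein subunit, by 0.80, and Sgce, a sarcoglycan, by 0.92. Others varied more without passing the 2-fold rule: the highest and lowest class means of Ndn, a growth suppressor of neurons, were 1.59 log2 apart, those of Mirg, an RNA that hosts microRNAs, 1.85, those of Peg12 1.87 and those of Usp29 2.12. Grb10, an adaptor that dampens insulin and IGF signalling, was broad as well, with 601, 634, 1143 and 1268 CPM in all cells. Slc22a18, Magel2, Rtl1, Peg13 and Phlda2 had means under 5 CPM in all cells. Phlda2, which restrains placental growth, was near 1 CPM in BrM and reached 54.8, 107, 14.3 and 19.1 CPM in endoderm. That was 3.88-fold, 10.3-fold, 1.05-fold and 1.29-fold over the other classes, so endoderm stood out in Rep1 only. In cardiac muscle it was 3.01-fold, 0.669-fold, 4.08-fold and 4.26-fold, and in ectoderm 1.83-fold, 1.28-fold, 2.11-fold and 2.54-fold. Summed markers of liver and yolk sac endoderm were at 21.9, 494, 8.78 and 119.9 CPM in the endoderm class, 5 of 7 higher in cKO in both replicates. Those of trophoblast and decidua (4 of 5 at 0 in every library) were at 7.7, 26.4, 8.3 and 3.3 CPM there. The part of these markers was not tested. Peg12 in neuronal cells was at 20.4 and 20.5 CPM in Rep1 and 3.39 and 2.07 CPM in Rep2. Both genotypes showed this gap between replicates, which was not seen in BrM (25.6, 24.4, 34.1 and 29.0 CPM). Marker sums of the neuronal class moved between replicates as well, with neuronal markers at 1688, 1851, 6183 and 6708 CPM. Mesenchyme markers were at 297, 189, 44.1 and 37.4 CPM, and neural tube markers at 166, 250, 22.5 and 5.68 CPM. With at least 1000 genes per barcode, a cluster named neuronal and led by Rfx4 and Hes5 held 219, 163, 18 and 1 cells. The make-up of the class thus differed between replicates, and its part in the gap was not tested.

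Loss of Kmt2d was compared with heterozygous loss to see whether imprinted genes change in the mutant lineage. In all cells kept, none of the 31 did by edgeR's quasi-likelihood test blocked on the replicate, with Benjamini-Hochberg adjustment (0% of 20126 genes called). At an unadjusted p under 0.05 there were 2 of 31, and 1139 of all genes; DESeq2 called 0 of 31 and 63 of all genes. The 2 were Grb10, at a log2 difference cKO over cHet of 0.14 ± 0.05 (SE), and Meg3, at -0.13 ± 0.05, with 191, 164, 214 and 199 CPM. The median log2 difference was -0.02 over the 31 and 0.016 over all genes, with 14 higher and 17 lower. It was 0.001 over the 19 paternally expressed and -0.11 over the 10 maternally expressed genes, of which 8 were lower, against 44.0% of all genes. Some of the 10 share a domain, as Meg3, Rian and Mirg do, so they are not independent of each other. In all cells, summed cardiac muscle markers were at 712, 304, 1400.4 and 1225 CPM, 9 of 9 lower in cKO in both replicates, as were 7 of 9 endothelial markers, while 5 of 8 mesenchyme markers were higher in both; their part was not tested. Kmt2d UMIs stood at 17.4, 15.2, 23.9 and 21.0 CPM in all cells (-0.16 ± 0.07, edgeR adjusted p = 0.96); such 3′ counts do not report the floxed exons, so they check neither the label nor the loss.

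Within cell classes, 5 of 317 gene and class pairs passed the test (1.58%, against 0.465% of 144420 pairs over all genes), and all 5 were higher in cKO (0.29% of all pairs). At an unadjusted p under 0.05 there were 54 (17.0%, against 5.81% of all pairs). For 2 gene lists described below it was 16.1% (insulin-like growth factor axis) and 11.3% (other imprinted genes). Shares by p are not matched for level: 26 of the 31 had a mean of at least 5 CPM, against 10550 of 20126 genes. Between 27 and 31 of the imprinted genes passed the filter on low counts in a class, and those left out were Rtl1, Slc22a18, Magel2 and Peg13. Of the 5, 3 were in pSHF (of 29 tested, where 1.09% of all genes were called and 0.854% were higher), 1 in BrM (of 30, where it was 1.2% and 0.677%) and 1 in mesenchyme (of 31, where it was 1.5% and 0.805%). In the other classes none of the imprinted genes was called, although with no filter on low counts Grb10 was called in ectoderm and Phlda2 in endoderm (both higher in cKO, Phlda2 also with doublets kept), and Nnat in endothelium, Meg3 and Rian in cardiac muscle, Peg3 in neuronal cells and 4 genes in otic vesicle (all lower). With the filter, the share of all genes called was 0% in ectoderm, endothelium and cardiac muscle, and 0.0868% in endoderm. It was 0.0631% in otic vesicle, 0.0814% in aSHF, 0.466% in MLPs and 0.0469% in neuronal cells. With no filter, 40 of 20827 genes were called in ectoderm, 63 of 19944 in endoderm and 159 of 19344 in otic vesicle. It was 110 of 21341 in endothelium, 27 of 18556 in cardiac muscle and 255 of 21165 in neuronal cells. The 5 calls were made by edgeR with the replicate block: without the block there were 0, and by DESeq2 with the block also 0 (with 1 and 17 pairs at an unadjusted p under 0.05). The log2 differences of the 5 pairs were from 0.27 to 0.46 without the block and from 0.29 to 0.46 by DESeq2. Without the block no gene at all was called in any class, so the imprinted genes could not be called either. DESeq2 with the block called 5 of 13355 genes in pSHF, 16 of 14616 in BrM and 68 of 16638 in mesenchyme. Fits with 1 library left out hold a lone library of 1 genotype, and only their log2 differences are given below. The calls were not all higher in cKO under other filters. With no filter on low counts 10 of 20 were higher (of 341 pairs tested), with at least 1000 genes per barcode 3 of 7 (of 292), and with doublets kept 2 of 4 (of 290). Over all genes, calls with no filter were 139 of 21578 in pSHF, 347 of 22614 in BrM and 635 of 24351 in mesenchyme. With at least 1000 genes they were 167 of 13121 in pSHF. With doublets kept they were 53 of 11667 in endoderm and 222 of 16617 in mesenchyme.

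**Figure D4:**
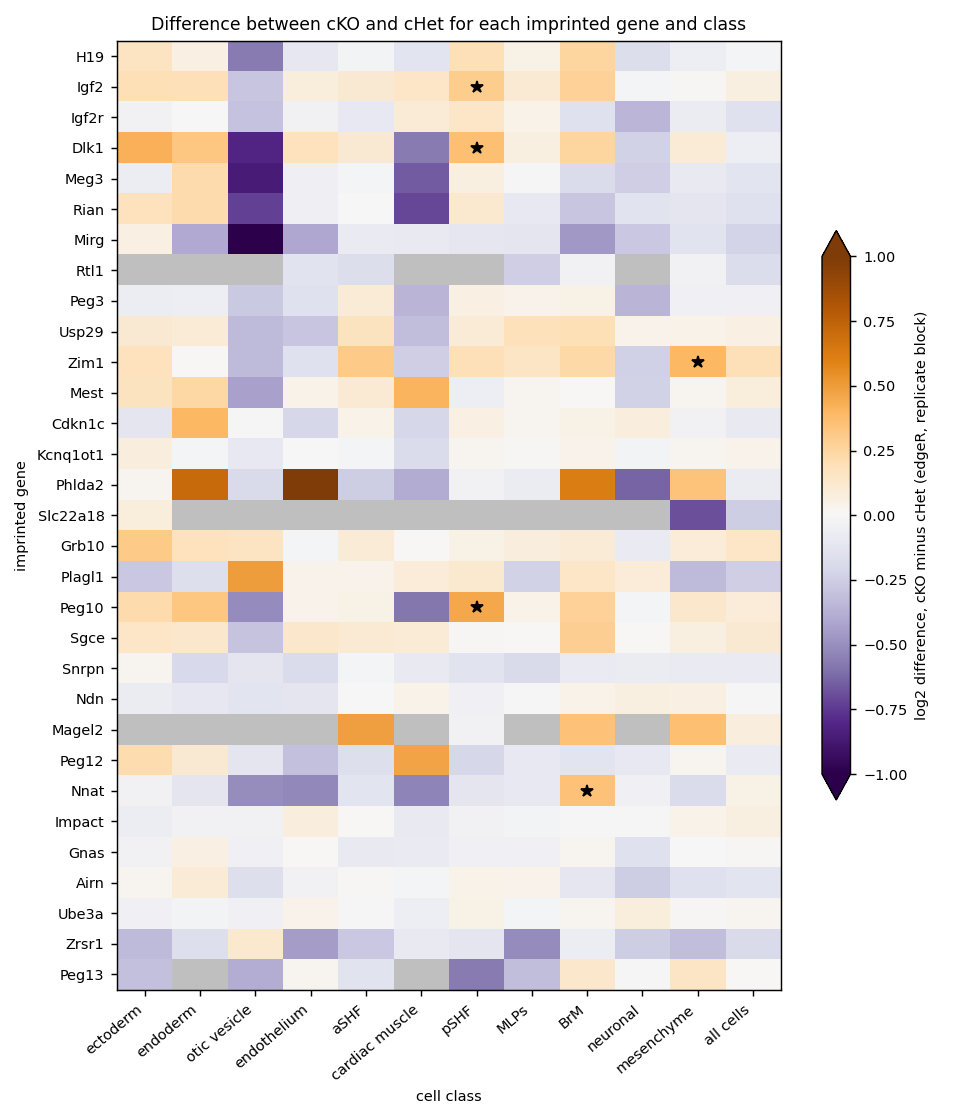
Heat map of the log2 difference cKO over cHet by edgeR for the 31 imprinted genes (rows) in 11 cell classes and in all cells (columns); stars mark an adjusted p under 0.05 and grey marks pairs not tested for low counts. The 5 stars are Peg10, Igf2 and Dlk1 in pSHF, Nnat in BrM and Zim1 in mesenchyme, and the otic vesicle column is mostly negative.

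In pSHF, progenitors that add to the venous pole of the heart, Peg10, Igf2 and Dlk1 were higher in cKO. Peg10 stood at 36.3 (cHet) and 52.2 CPM (cKO) within Rep1, against 84.1 and 113 CPM within Rep2. The log2 difference was 0.46 ± 0.09 (SE; edgeR adjusted p = 0.00014), with 0.51 in Rep1 and 0.43 in Rep2. Igf2 stood at 248 and 321 CPM within Rep1, against 635 and 747 CPM within Rep2 (0.29 ± 0.07, edgeR adjusted p = 0.0017). Dlk1 stood at 79.9 and 103 CPM within Rep1, against 84.5 and 109.8 CPM within Rep2 (0.36 ± 0.08, edgeR adjusted p = 0.0017). In the pSHF fit the spread of a gene was taken from the trend over all genes, so its own spread between pools hardly entered these p-values. For Dlk1 both cKO libraries lay above both cHet libraries. For Peg10 and Igf2 the genotypes overlapped across kits, and cKO was higher within each replicate.

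The pSHF class was 1 cluster of 318, 210, 559 and 670 cells. Over its 29 tested imprinted genes the median was 0.04 (17 higher, 12 lower), against -0.006 over all genes. H19 followed Igf2 in direction, with 363 and 422 CPM in Rep1 and 326 and 374 CPM in Rep2. Sums of marker genes differed too: those of pSHF were 423, 509, 758 and 788 CPM, those of BrM 73.8, 80.5, 110.9 and 138.3 CPM, and those of cardiac muscle 323, 394, 314 and 436 CPM, with 7 of the 9 cardiac markers higher in cKO in both replicates. A shift of cell states within the class was not tested. The Dlk1 difference was 0.04 with the imprinted genes allowed in the clustering and 0.03 at a coarser clustering, so it depends on where the class border runs. Peg10 had 0.33 and 0.34 there and did not pass (edgeR adjusted p = 0.061 and 0.11). With doublets kept none of Peg10, Igf2 and Dlk1 passed (edgeR adjusted p = 0.19, 0.15 and 0.95). Nor did they with thinned cells (edgeR adjusted p = 0.14, 0.054 and 0.32).

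Igf2 and 3 other genes of its axis were called in pSHF, BrM or mesenchyme. Of 19 genes of the insulin-like growth factor axis, Igfbp5, a binding protein of these factors, was higher in cKO in pSHF, with 209, 302, 336 and 381 CPM (0.33, edgeR adjusted p = 0.00014), and in BrM, with 377, 468, 415 and 474 CPM (0.29, edgeR adjusted p = 0.049). Igf1, the sister growth factor of Igf2, was higher in BrM, with 21.5, 29.7, 48.0 and 68.8 CPM (0.53, edgeR adjusted p = 0.0033). Igfbp2 was lower in mesenchyme, with 19.2, 15.4, 37.3 and 26.3 CPM (-0.41, edgeR adjusted p = 0.0063). Its level was higher in other classes, such as ectoderm (200.03, 328, 305 and 294 CPM), and summed ectoderm markers in mesenchyme were at 9.42, 6.46, 8.69 and 6.70 CPM; their part was not tested. Besides Igf2, which the axis list leaves out, 4 of 161 pairs of the axis were called (2.48%, against 0.465% of all pairs). These 4 calls were also lost by DESeq2, and without the replicate block, where no gene at all was called in any class.

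In BrM, the progenitors of jaw and face muscle, Nnat was higher in cKO. It stood at 2275 and 3087 CPM within Rep1, against 2805 and 3203 CPM within Rep2 (0.35 ± 0.07, edgeR adjusted p = 0.0096), so both cKO libraries lay above both cHet libraries. Nnat did not pass in BrM with at least 1000 genes per barcode (edgeR adjusted p = 0.12) or with doublets kept (0.068). Nor did it at a coarser clustering (0.11) or with size factors (0.067). It passed with thinned cells, with no filter on low counts and with the imprinted genes allowed in the clustering. Of the 2 BrM clusters, 1 (5) had a mean of 3580 CPM and a difference of 0.33, and the other (14) had 1193 CPM and 0.15. In the other 10 classes the Nnat difference was negative and did not pass the test, from -0.03 in ectoderm to -0.54 in cardiac muscle (edgeR adjusted p from 0.29 to 1.00 over these classes). With no filter on low counts Nnat passed in endothelium, mesenchyme and otic vesicle, lower in cKO in each. Summed BrM markers were 403, 480, 633 and 802 CPM in the same cells, 5 of the 6 markers being higher in cKO in both replicates; their part in the result was not tested. Close to the threshold in BrM were Igf2 (0.27, edgeR adjusted p = 0.060), H19 (0.25, 0.090) and Peg10 (0.27, 0.093). All 3 passed with no filter on low counts, Igf2 also with the imprinted genes allowed in the clustering, and Peg10 also with thinned cells. Over the 30 tested genes 10 (33.3%) had an unadjusted p under 0.05, against 8.29% of all genes, and the median was 0.05 against 0.013 over all genes. Of the 10, Rian, Mirg and Meg3, the RNAs of the Dlk1 domain, had negative values, while Dlk1 itself had 0.25 (edgeR adjusted p = 0.13).

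In mesenchyme, Zim1, a zinc finger gene of the Peg3 domain expressed from the maternal allele, was higher in cKO. It stood at 11.2 and 15.4 CPM within Rep1, against 13.6 and 16.9 CPM within Rep2 (0.39 ± 0.08, edgeR adjusted p = 0.023). Both cKO libraries lay above both cHet libraries. Zim1 did not pass with at least 1000 genes per barcode (edgeR adjusted p = 0.092) or with the imprinted genes allowed in the clustering (0.070). It passed with doublets kept, with thinned cells, with size factors, at a coarser clustering and with no filter on low counts. The class joined 5 clusters, and within them the difference was 0.46 (cluster 1), 0.35 (11), 0.17 (12), -0.037 (2) and -0.10 (10), or 0.17 with the clusters weighted equally. Summed cardiac muscle markers were at 90.5, 62.9, 279 and 142 CPM in mesenchyme, 8 of 9 lower in cKO in both replicates, and 4 of 9 endothelial markers were lower in both. The class's own markers were at 1216, 1325, 1693 and 1761 CPM, 4 of 8 higher in both and 0 lower. Their part in the Zim1 result was not tested. In aSHF Zim1 stood at 34.0, 41.3, 52.9 and 66.1 CPM, which did not pass the test (0.31, edgeR adjusted p = 0.49). Its neighbour Peg3 did not pass the test in any class, apart from neuronal cells when low counts were not filtered. In that setting Nnat and Plagl1 were also called in mesenchyme, both lower in cKO.

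**Figure D5:**
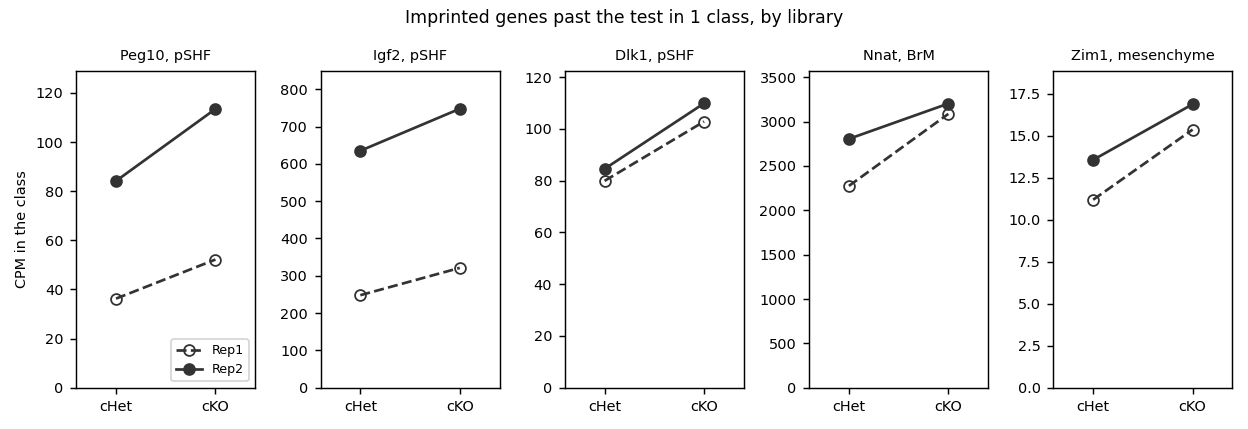
Level in CPM of the 5 called gene and class pairs in each library, with a line joining the cHet and cKO libraries of a replicate. Each of the 10 lines rises from cHet to cKO, and for Peg10 and Igf2 the gap between replicates is larger than that between genotypes.

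Of 45 other imprinted genes found in the files, 2 were called in any class, in 4 of 326 pairs (1.23%, against 0.465% of all pairs), and both lie near Peg10 on chromosome 6. The list itself draws on that region, since it also held Casd1, Ppp1r9a, Pon2, Pon3 and Tfpi2 from there, none of them called. Asb4, which encodes a subunit of a ubiquitin ligase, was higher in cKO in pSHF, with 31.3, 55.6, 33.5 and 45.0 CPM (0.59, edgeR adjusted p = 1.9e-05), and in BrM, with 90.5, 118, 122 and 146 CPM (0.35, edgeR adjusted p = 0.018). Calcr, the calcitonin receptor, was higher in aSHF, with 2.77, 10.6, 4.31 and 10.3 CPM (1.54, edgeR adjusted p = 0.025). In the same cells cardiac muscle markers were at 1206, 670, 4507 and 3776 CPM, 8 of 9 lower in cKO in both replicates, 5 of 9 aSHF markers were lower in both, and pSHF markers were at 61.4, 106, 78.9 and 83.3 CPM; their part was not tested. In pSHF it was at 1.11, 1.73, 1.11 and 4.19 CPM (2.83-fold, edgeR adjusted p = 0.044), from 8, 9, 14 and 51 UMIs. By DESeq2 0 of these 4 calls were left, and without the replicate block no gene at all was called in any class. Of the 4, 1 was left with doublets kept, 2 with thinned cells and 2 with at least 1000 genes per barcode. It was 3 at a coarser clustering, 3 with size factors, 3 with the imprinted genes in the clustering and 4 with no filter. The stretch from Calcr to Asb4 (chr6:3685680-5433022) was looked at for this reason, after these values were seen, and its bounds are called genes. It held 14 counted protein-coding genes, of which 11 were tested in pSHF. All 11 had a positive log2 difference there, 8 of them in both replicates, with a median of 0.13, and 3 were called (Calcr, Peg10 and Asb4). Of all genes tested in pSHF, 48.2% were positive, 24.6% in both replicates. Sgce, next to Peg10, had 0.01 in pSHF (edgeR adjusted p = 0.999). In BrM 12 of 12 tested were positive with a median of 0.21 and 1 called (54.2% of all genes were positive there). In aSHF 11 of 11 were positive (49.9% of all genes), 4 of them in both replicates. It was 10 of 12 in ectoderm, 9 of 12 in MLPs, 8 of 11 in endothelium, 7 of 10 in endoderm, 7 of 12 in mesenchyme, 3 of 11 in neuronal cells, 3 of 10 in cardiac muscle, 0 of 8 in otic vesicle and 10 of 13 in all cells.

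Of 21 genes that set or keep imprints, among them Dnmt1, Uhrf1, Zfp57 and Trim28, none was called in any class by edgeR, in 210 pairs (0%, against 0.465% of all pairs), and 5 pairs had an unadjusted p under 0.05 (2.38%, against 5.81%). DESeq2 called 0.

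The otic vesicle showed the widest one-sided shift, without a call. Of 28 tested imprinted genes 25 were lower in cKO (against 52.2% of all genes), 18 of them in both replicates (against 27.0% of all genes), and the median was -0.28 against -0.01 over all genes. These genes share the same 4 pools, and some are neighbours with like patterns, so they are not independent of each other. None passed the test by edgeR, and 9 had an unadjusted p under 0.05 (32.1%, against 5.29% of all genes). Mest stood at 449.6, 298, 1272 and 1041 CPM (-0.44, edgeR adjusted p = 0.18) and H19 at 151, 95.3, 86.5 and 63.0 CPM (-0.57, edgeR adjusted p = 0.18). Nnat was at 416, 239.7, 269 and 231 CPM, and Meg3 at 87.4, 28.5, 37.6 and 33.0 CPM, so cHet Rep1 stood above the other libraries for both. With changed cell and gene filters some passed, all lower in cKO: H19, Meg3, Mest and Nnat with at least 1000 genes per barcode and with no filter on low counts, H19 and Mest with doublets kept, and Nnat with thinned cells. Calls over all genes in this class moved too, from 7 of 11101 in the main fit to 100 of 11295 with at least 1000 genes. They were 159 of 19344 with no filter, 67 of 11497 with doublets kept and 10 of 7520 with thinned cells. Summed markers of mesenchyme (147, 31.1, 42.3 and 25.3 CPM), BrM (33.6, 3.8, 8.5 and 2.1 CPM) and pSHF (8.6, 2.1, 7.8 and 1.7 CPM) were lower in cKO in both replicates in this class. Endothelial markers were at 47.2, 0.8, 4.7 and 4.7 CPM. Other marker sums were higher in cKO in both replicates: those of the otic vesicle itself (1109, 1478, 1386 and 1440.1 CPM), endoderm (679, 876, 668 and 726 CPM) and ectoderm (875, 1053, 855 and 875 CPM). Their single markers were mixed, with 2 of 8, 1 of 9 and 2 of 9 higher in both replicates and 1, 1 and 2 lower in both. Their part in the shift was not tested. In neuronal cells 22 of 28 imprinted genes were lower (against 48.3% of all genes), with a median of -0.09 against 0.006, and none was called by edgeR (4 at an unadjusted p under 0.05, 14.3% against 5.76%). Here too the genes are not independent of each other. Marker sums of mesenchyme (given above), endothelium (31.6, 15.0, 28.4 and 16.0 CPM) and pSHF (24.0, 15.2, 14.8 and 4.6 CPM) were lower in cKO in these cells in both replicates as sums. Of the single markers, 3 of 8, 4 of 9 and 4 of 6 were lower in both, and 4 of the 9 endothelial markers were higher in both. Summed neural tube markers (given above) were higher in cKO in Rep1 and lower in Rep2. Their part was not tested.

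Whether the genotype difference of a gene varied between cell classes was tested with an interaction in edgeR. None of the 31 passed after adjustment, against 0.29% of 15495 genes, and 9 had an unadjusted p under 0.05 (29.0%, against 5.91% of all genes). The lowest adjusted p were those of H19 (0.069), Nnat (0.13) and Mest (0.16). The calls in 1 class are therefore not shown to be particular to that class.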

How the data were processed

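Droplet 3′ single-cell RNA-seq of 4 libraries was analysed from the UMI counts per gene and barcode that the authors deposited, filtered matrices before ambient RNA correction; the submitters' processing notes name Cell Ranger 8.0.1 and mm10, and strand and intron settings were not given in the sources used here. Every gene row was named.

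Barcodes with at least 3000 genes, at most 10% mitochondrial and 5% haemoglobin UMIs were kept. The Scrublet caller's own threshold marked 0.015% to 1.74% of barcodes, so the barcodes with the highest scores were removed up to the rate set by the kit (0.8% per 1000 cells for Next GEM, 0.4% for GEM-X). Counts were clustered with scanpy 1.11.5 (2000 variable genes without the imprinted genes, 30 components, 20 neighbours, differences between replicates reduced in the components by a Harmony procedure, Leiden resolution 0.8). Markers counted for a cluster if at least 2-fold over all other cells, after adding 5 CPM, and seen in at least 10% of its cells. The class with the largest share of such markers, and at least 3, gave the name. Some clusters met this for other classes too: aSHF with 6 cardiac muscle markers, pSHF with 5 of aSHF and 4 of MLPs, and endoderm with 5 of ectoderm. Counts were summed per library and class and tested with edgeR 4.0.16 (TMM scaling, filterByExpr, quasi-likelihood test, replicate as a block, Benjamini-Hochberg adjustment over all genes tested, threshold 0.05) in R 4.3.3; DESeq2 1.42.0 was an alternative. Libraries of one number share a kit per the labels, and deviations of same-numbered libraries from their group means correlated at 0.60 to 0.84 in each class. The fold in 1 class is (CPM + 5) over the mean of the other classes + 5. Standard errors were derived from the log2 difference and the F statistic of the quasi-likelihood test, so they restate that test. The tests were tried on simulated data.

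The members and lists were chosen with earlier results of these data known. All 31 genes are accounted for. Values per library are given for genes called, genes over 2-fold in 1 class and the pairs Igf2 with H19 and Dlk1 with Meg3. Other genes of shared loci are given mostly by correlation, fold or ratio. From the 3 lists (46 other imprinted genes, of which 45 were found, 21 imprint maintenance genes and 19 genes of the insulin-like growth factor axis) the genes called are named. Alternatives tried were other scalings, filters, clusterings, thinning to 5000 UMIs and leaving out each library.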

Additional observations from a re-analysis of the deposited data

How the results depend on the processing

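In all cells, 0 imprinted genes were called in the alternatives that used all 4 libraries, with 0 to 7 genes at an unadjusted p under 0.05. With no replicate block, with size factors and with at least 1000 genes per barcode no gene at all was called, so those counts could not differ. Elsewhere the calls over all genes were 63 of 20126 by DESeq2, 91 of 26827 with no filter and 25 of 16784 with thinned cells. They were 278 of 18913 with equal numbers of cells per class and 4 of 20229 with doublets kept. The 5 calls over cell classes changed with the setting. There were 0 by DESeq2 and 0 without the replicate block, where no gene at all was called in any class. With no filter on low counts there were 20 (10 higher in cKO). There were 3 (3 higher) with the imprinted genes allowed in the clustering and 2 (2 higher) at a Leiden resolution of 0.5. The count was 4 (4 higher) with size factors, 7 (3 higher) with at least 1000 genes per barcode, 4 (2 higher) with doublets kept and 4 (3 higher) with cells thinned to 5000 UMIs. Calls over all genes in mesenchyme were 249 of 16638 in the main fit, 250 of 16638 with size factors and 550 of 17179 at a resolution of 0.5. In pSHF they were 146 of 13355 in the main fit, 108 of 13282 with the imprinted genes in the clustering and 99 of 13015 at a resolution of 0.5. Of the 5 pairs called, 5 were among those called with no filter, 4 with size factors, 3 with at least 1000 genes, 2 with the imprinted genes in the clustering, 2 at a resolution of 0.5, 2 with thinned cells and 1 (Zim1) with doublets kept. The calls added with at least 1000 genes were H19, Meg3, Mest and Nnat in otic vesicle. With 1 library left out no block could be fitted, so kit and genotype mix, and the lone sample is assumed to vary like the others. In such fits Igf2 in pSHF turned to -0.14 (without cHet replicate 1) and -0.23 (without cKO replicate 2). Zim1 turned to -0.037 and -0.10 within clusters 2 and 10 of mesenchyme, an alternative chosen after seeing the data. Over all alternatives the log2 difference ran from 0.0086 to 0.96 for Peg10, -0.23 to 0.86 for Igf2 and 0.028 to 0.50 for Dlk1 in pSHF, from 0.15 to 0.49 for Nnat and from -0.10 to 0.59 for Zim1. They passed the threshold in 3, 5, 3, 3 and 5 of 13 fits, in that order. These include the fits with 1 library left out, which are not read as tests, and the fit without the block, which called no gene. The cause was not tested. The count of genes over 2-fold in 1 class was between 9 and 12 in 10 alternatives, with 7 of the 9 genes shared at 1000 genes per barcode, 8 with doublets kept, 8 with the imprinted genes in the clustering and 9 in the rest. These classes are not like for like: with doublets kept there was no aSHF class, with at least 1000 genes no endoderm class, and with the imprinted genes in the clustering cardiac muscle held 349, 148, 389 and 457 cells in place of 79, 29, 128 and 147. In addition, 0 genes had unequal genotype effects between classes with either scaling. Cardiac muscle, with 29 to 147 cells per library, limits the precision there.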

Other observations

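The barcodes with under 1000 genes, which entered no comparison, carried imprinted gene RNA too. In cHet Rep1 there were 14762 such barcodes, with 788 CPM of Nnat, 601 CPM of Mest, 360.3 CPM of Igf2, 303 CPM of H19 and 86.1 CPM of Dlk1. In cKO Rep1 there were 1465, with 659 CPM of Nnat, 469 CPM of Mest, 265 CPM of Igf2, 241 CPM of H19 and 61.3 CPM of Dlk1. The Rep2 libraries held 2296 (cHet) and 2763 (cKO) such barcodes. In these, cHet before cKO, Nnat was at 548 and 435 CPM, Mest at 1051 and 989 CPM and Igf2 at 429 and 460 CPM. H19 was at 535 and 506 CPM and Dlk1 at 39.2 and 37.2 CPM.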
